A study of Mus musculus with 2 samples.

Results

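The 6 genes described here, *Nodal*, *Tdgf1*, *Lefty1*, *Lefty2*, *Smad7* and *Skil*, encode a signalling ligand, its coreceptor and 4 of its inhibitors. They were taken by name from a list, as 6 of the 38458 gene columns of the count tables, and the list was drawn up with their ratios between the 2 libraries of the study known. These ratios are therefore a description, and no test supports them.

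Nodal is a secreted ligand of the TGF-β family that acts through activin receptors and needs the membrane-anchored coreceptor Cripto, the product of *Tdgf1*. The receptors phosphorylate Smad2 and Smad3, which enter the nucleus with Smad4 and bind DNA with partners such as Foxh1. The Lefty proteins are secreted antagonists that keep Nodal from its receptors, and their genes are themselves switched on by Nodal signalling, which closes a negative feedback loop. Smad7 blocks the activated receptors inside the cell, and SnoN, the product of *Skil*, represses transcription by the SMADs. In mouse embryonic stem cells the pathway is active without added ligand, and *Lefty1* and *Lefty2* are among its best known targets.

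Single-cell RNA-seq was performed on a mouse embryonic stem cell line that lacks telomerase RNA, to compare the cells before and after they came to maintain telomeres by alternative lengthening (ALT). Both libraries came from DKO741, a Terc-/- line made from E14 cells by replacing one *Terc* allele with the TR-10 construct, removing the resistance gene with Cre and targeting the other allele. One library was made from cells labelled as passage 100 (PD100, before ALT) and one from cells labelled as passage 800 (PD800, after ALT). The line is 1 clone, no Terc+/+ library was analysed here, and time in culture and ALT cannot be told apart. The line was grown on fibroblast feeders between experiments, while the cells analysed had none.

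After barcodes with fewer than 1000 UMIs (unique molecular identifiers, each standing for 1 captured RNA molecule) or more than 20% mitochondrial UMIs were left out, 814 PD100 cells held 1826233 UMIs and 900 PD800 cells held 2580963. The median cell had 2151 UMIs in PD100 and 2701.5 in PD800, and the median mitochondrial share was 1.23% and 4.42%. *Terc* had 0 UMIs in both libraries, but its RNA as a rule has no poly(A) tail, so this does not check the labels. The 10 embryonic stem cell markers were all measured in both libraries. Of the 17 extraembryonic endoderm markers, 9 had enough UMIs to be compared. All 9 were at least 2-fold lower in PD800, beside 16.9% of all 6984 genes with enough UMIs. Of these 9, *Gata6* and *Srgn* had 0 UMIs in PD800. Endoderm markers made up 0% to 3.59% of a cell's UMIs in PD100 and 0% to 0.326% in PD800. Of the barcode sequences, 21 occurred in both libraries, and 8 of these passed the filter in both. With 1 library for each time point there is no replicate, so every interval given is a 95% interval for counting error only.

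The *Lefty* genes showed the widest gap of the 6 between the libraries. *Lefty1* and *Lefty2* were each more than 50-fold lower in PD800, *Nodal* was about 5-fold lower and *Skil* about 2-fold lower. *Tdgf1* differed about as much as the median gene. A gene counted as lower or higher when its CPM (the UMIs of a gene after scaling its library to a total of 1000000) differed at least 2-fold. By this rule 4 of the 6 genes were lower in PD800 and 0 were higher, while 16.9% of the 6984 genes that had 50 or more UMIs in the 2 libraries combined were lower and 9.22% higher. The median log2 ratio of PD800 over PD100 was -1.76 over the 6 genes and -0.34 over the 6984. Since the whole distribution was shifted, ratios are also given relative to that median gene. On that scale 3 of the 6 (*Nodal*, *Lefty1* and *Lefty2*) were lower, against 7.79% of all genes, and 0 were higher, against 13.9%. These members were picked by this same contrast, so nothing is read from their count.

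**Figure D1:**
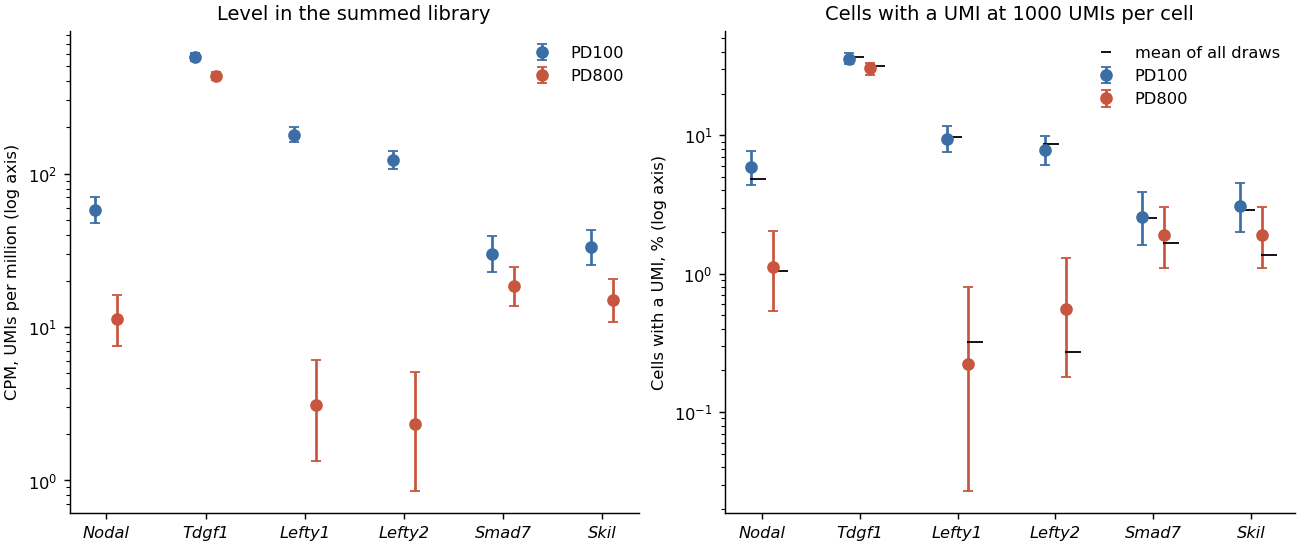
Level of each gene in CPM (left, log axis) and share of cells with at least 1 UMI after thinning every cell to 1000 UMIs (right, log axis), in PD100 (blue) and PD800 (red). Points are the single library of each group, bars are 95% counting intervals, and black dashes are the mean share over all possible draws. The *Lefty1* and *Lefty2* points of PD800 lie at 3.10 and 2.32 CPM, far under those of PD100 at 180 and 123, while the *Tdgf1* points lie close together.

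*Nodal*, the ligand, had 106 UMIs in PD100 and 29 in PD800. Its level was 58.0 CPM (47.5 to 70.2) in PD100 and 11.2 CPM (7.53 to 16.1) in PD800, 5.17-fold lower, and the intervals did not overlap. The log2 ratio was -2.37 (-3.01 to -1.76), or -2.03 relative to the median gene. *Nodal* UMIs were found in 71 of 814 PD100 cells, with at most 5 in a cell, and in 24 of 900 PD800 cells, with at most 3. With each cell thinned to 1000 UMIs, which removes the difference in depth, a *Nodal* UMI was found in 5.90% (4.38 to 7.74) of the PD100 cells and in 1.11% (0.534 to 2.03) of those of PD800. The draw was somewhat high for PD100, since the mean over all possible draws was 4.86% in PD100 and 1.05% in PD800. The gene lies on the plus strand of chr10:61417972-61425338 (GRCm38).

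*Tdgf1*, the coreceptor, had 1049 UMIs in PD100 and 1122 in PD800, or 574 CPM (540 to 610) and 435 CPM (410 to 461). The log2 ratio of -0.40 (-0.52 to -0.28) was nearly that of the median gene, from which it differed by -0.06. The gene was found in 443 of the 814 PD100 cells and in 505 of the 900 PD800 cells. At equal depth the shares were 35.7% (32.5 to 39.2) and 30.3% (27.3 to 33.5). The highest count in a cell was 13 UMIs in both libraries, and the distributions of UMIs per cell ran close together. It lies on the minus strand of chr9:110939603-110946158.

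The reference promoters of these 2 genes, the ligand and the coreceptor, are shown. Whether the promoters have a part in the ratios was not tested. Each sequence runs from 250 bases before to 50 bases after the start of the gene (RefSeq, GRCm38.p6), 5′ to 3′ along the gene's strand. From the promoter table used here, only the windows of *Nodal* and *Tdgf1* were taken. The promoters of *Lefty1*, *Lefty2*, *Smad7* and *Skil* were not examined. Capitals mark matches, on either strand, to TGTNNATT, a loose spelling of the site bound by Foxh1, and to CAGAC, a SMAD-binding element. The first lies at chr9:110946109-110946408 on the minus strand, the second at chr10:61417722-61418021 on the plus strand.
Tdgf1: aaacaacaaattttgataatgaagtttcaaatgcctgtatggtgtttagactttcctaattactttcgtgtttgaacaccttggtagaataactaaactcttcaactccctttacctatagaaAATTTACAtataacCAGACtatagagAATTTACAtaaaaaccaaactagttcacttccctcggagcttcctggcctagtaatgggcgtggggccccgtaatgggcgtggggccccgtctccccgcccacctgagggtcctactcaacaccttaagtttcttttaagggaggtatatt
Nodal: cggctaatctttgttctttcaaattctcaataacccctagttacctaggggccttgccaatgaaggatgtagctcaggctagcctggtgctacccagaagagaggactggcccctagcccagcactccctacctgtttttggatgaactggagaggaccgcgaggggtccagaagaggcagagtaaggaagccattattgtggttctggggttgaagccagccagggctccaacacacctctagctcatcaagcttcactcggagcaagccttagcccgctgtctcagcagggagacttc
The *Tdgf1* window held 2 matches to TGTNNATT with 1 match to CAGAC between them, and the *Nodal* window held 0 of either. Among 32851 promoter windows of this length in the table, 12.2% held TGTNNATT at least once and 1.43% at least 2 times, while 49.6% held CAGAC. These are letter matches and not measured binding sites. The 0 matches in the *Nodal* window say only that these letters are not in it.

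*Lefty1*, a secreted inhibitor of Nodal, had 328 UMIs in PD100 and 8 in PD800. Its level was 180 CPM (161 to 200) in PD100 and 3.10 CPM (1.34 to 6.11) in PD800, 57.9-fold lower. The log2 ratio of -5.86 (-7.08 to -4.86) ranked 4 from the lowest among the 6984 genes. Genes with 0 UMIs in PD800 were ranked with that 0 set to 3, so their true ratios may be lower. *Lefty2*, a nearby gene with the same function, had 224 UMIs in PD100 and 6 in PD800. Its level was 123 CPM (107 to 140) in PD100 and 2.32 CPM (0.853 to 5.06) in PD800, 52.8-fold lower. The log2 ratio of -5.72 (-7.18 to -4.58) ranked 5 from the lowest. The intervals of the 2 genes overlapped almost wholly, so their ratios could not be told apart at this depth. Relative to the median gene the log2 ratios were -5.51 and -5.38. *Lefty1* lies at chr1:180935022-180938400 and *Lefty2* at chr1:180893108-180899103, both on the plus strand. With mitochondrial genes taken out of the library totals, whose shares differed between the libraries, *Lefty1* was at -5.81. Without the barcode sequences found in both libraries it was at -5.86.

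*Lefty1* and *Lefty2* UMIs were held by a minority of PD100 cells. *Lefty1* was found in 118 of 814 PD100 cells and in 7 of 900 PD800 cells. *Lefty2* was found in 110 PD100 cells and in 6 PD800 cells. At equal depth, a *Lefty1* UMI was found in 9.46% (7.54 to 11.7) of the PD100 cells and in 0.222% (0.0269 to 0.800) of those of PD800. For *Lefty2* the shares were 7.86% (6.11 to 9.93) and 0.556% (0.181 to 1.29). In PD800 the order of the 2 genes at equal depth rested on 2 and 5 cells, and the mean over all draws was 0.319% for *Lefty1* and 0.272% for *Lefty2*. Free RNA can put a UMI into a cell that does not express the gene, so these PD800 shares are not read as expression. The same limit applies to PD100 cells with 1 UMI, which were 50 of the 118 *Lefty1* cells and 50 of the 110 *Lefty2* cells.

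The counts per cell were uneven. Of the PD100 cells with *Lefty1*, 50 had 1 UMI, 31 had 2 and 37 had 3 or more, and the highest cell had 16. The 10 cells with most *Lefty1* held 103 of its 328 UMIs, or 31.4%. After thinning, the variance of *Lefty1* counts over PD100 cells was 2.88 times their mean, where a Poisson distribution has a ratio of 1. A Poisson distribution of the same mean would put a UMI into 15.7% of cells, against the 9.46% observed. *Lefty2* was less uneven, with a variance of 1.55 times the mean and 10.03% of cells under the Poisson model against 7.86%, but 1 cell held 15 UMIs. The other 4 genes had ratios from 1.18 (*Skil*) to 1.62 (*Tdgf1*) in PD100. In PD800 no cell had more than 2 *Lefty1* UMIs or more than 1 *Lefty2* UMI.

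**Figure D2:**
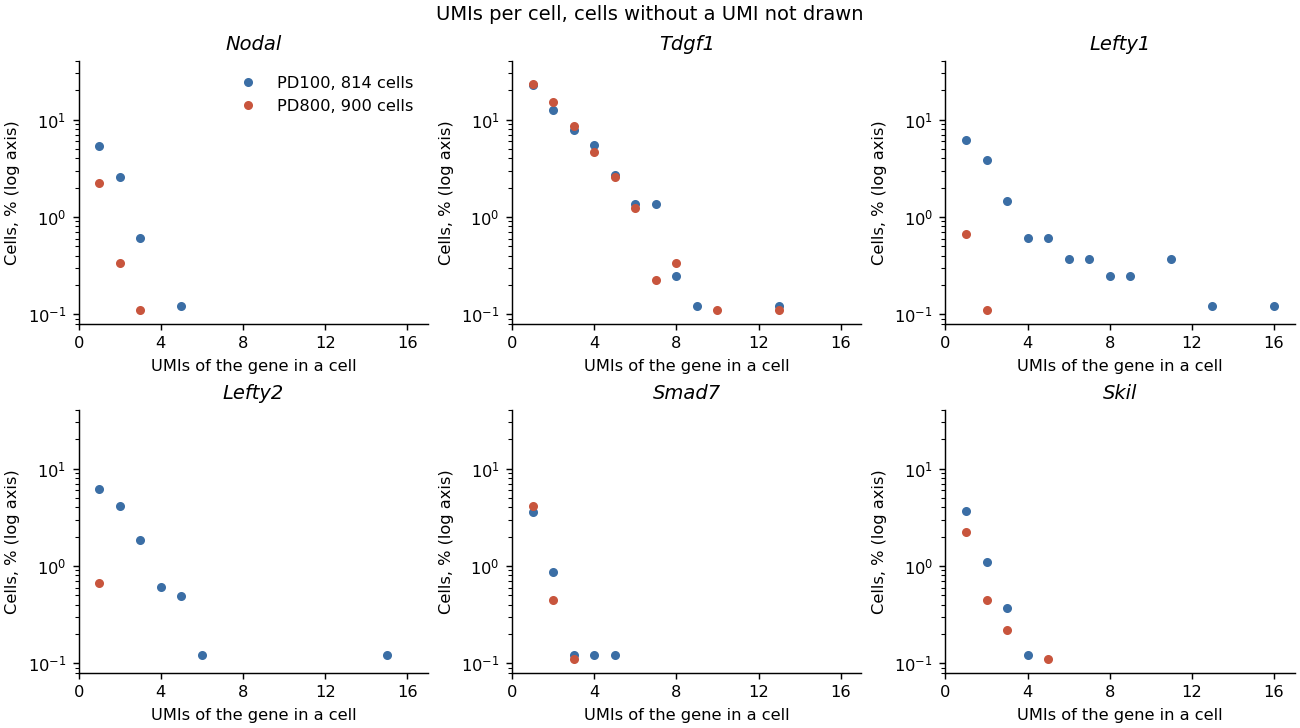
UMIs of each gene in a cell (horizontal axis, not thinned) against the share of the library's cells with that number (vertical axis, log scale), for PD100 (blue, 814 cells) and PD800 (red, 900 cells). Cells without a UMI are not drawn. The PD100 points of *Lefty1* reach 16 UMIs and the PD800 points stop at 2, whereas the *Tdgf1* points of the 2 libraries reach 13 UMIs in both.

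The *Lefty1* level in PD100 did not follow cell depth. In 3 groups of near equal size of cells ranked by depth, with medians of 1430, 2151 and 3030.5 UMIs, it was 188, 173 and 180 CPM. *Lefty2* was at 94.2, 152 and 115 CPM in the same groups. In PD800 the 3 groups held 1, 6 and 1 UMIs of *Lefty1*, and 1, 4 and 1 of *Lefty2*. The median depth of these groups in PD800 was 1594.5, 2698 and 4097 UMIs.

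How well the tables tell the 2 *Lefty* genes apart depends on their sequence, since reads were counted against transcripts. Their coding sequences are 1107 bases each and match at 1017 positions (91.9%) in the GENCODE M21 transcripts of GRCm38. Of the 50-base stretches of the *Lefty1* transcript, 17.9% also occur in *Lefty2*, and 11.6% of those of *Lefty2* occur in *Lefty1*. Within the last 500 bases, nearest the poly(A) tail where capture starts, 2.44% and 0% were shared. Those last 500 bases align at 42.7% identity. Reads from the shared stretches could be assigned to either gene. The sum of both genes does not depend on that assignment if each such read was counted once, which was not checked. This sum was 302 CPM (278 to 329) in PD100 and 5.42 CPM (2.97 to 9.10) in PD800, a log2 ratio of -5.80 (-6.68 to -5.04).

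The 2 *Lefty* genes were found together in PD100 cells more often than the product of their shares. At 1000 UMIs per cell, 15 cells held both, where the product of the single shares gives 6.05 cells, a ratio of 2.48 (1.39 to 4.06). *Lefty2* was found in 19.5% (11.3 to 30.1) of the 77 cells with *Lefty1* and in 6.65% (4.96 to 8.69) of the other cells. Over 20 random draws of the thinning the ratio lay between 2.22 and 3.40. Without thinning, 39 cells held both genes, 79 only *Lefty1* and 71 only *Lefty2*, so 189 of 814 cells (23.2%) had at least 1 of them. The 39 cells with both held 43.8% of the 552 *Lefty* UMIs, and 35 cells were enough to hold 50% of them. The median depth was 2259 UMIs in the 189 cells and 2091 in the others. In PD800, 13 of 900 cells had either gene and 0 had both. Since the 2 transcripts share sequence, part of the joint detection could come from read assignment, which was not tested.

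*Tdgf1* showed no such excess with *Lefty1*. Both were found in 27 PD100 cells at equal depth, against 27.5 cells from the product of the shares, a ratio of 0.981 (0.650 to 1.42). *Tdgf1* and *Lefty2* were found together in 29 cells against 22.9, a ratio of 1.27 (0.853 to 1.81). *Nodal* and *Lefty1* shared 6 cells against 4.54, a ratio of 1.32 (0.486 to 2.86). *Nodal* and *Lefty2* shared 0 cells against 3.77, and the upper end of the ratio's interval was 0.975. That last value depended on the draw: over the 20 draws the 2 genes shared 0 to 3 cells, and without thinning they shared 5 cells against 9.59. The other 10 pairs of the 6 genes included 1 in their intervals. These are counts of cells within 1 library, and cells are not replicates of a condition.

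**Figure D3:**
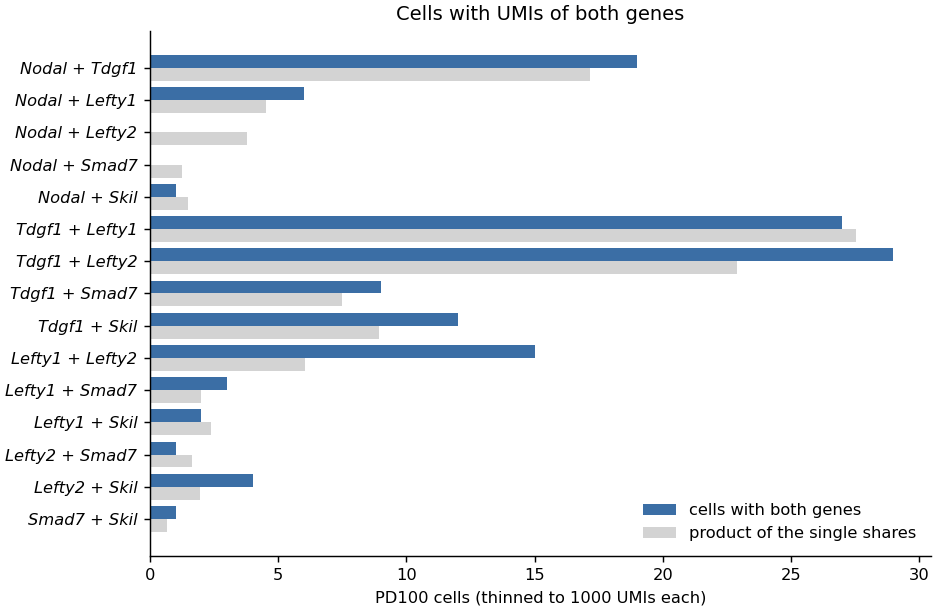
PD100 cells with UMIs of both genes of a pair (blue bars) beside the number that the product of the single shares gives (grey bars), among 814 cells thinned to 1000 UMIs each. *Lefty1* with *Lefty2* shows 15 cells against 6.05, while *Tdgf1* with *Lefty1* shows 27 against 27.5.

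PD100 cells with a *Lefty* UMI were set beside the other PD100 cells by other pathway genes and pluripotency markers. Among the 126 cells with either *Lefty* gene after thinning, 41.3% (32.6 to 50.4) had a *Tdgf1* UMI, against 34.7% (31.2 to 38.4) of the other cells. *Pou5f1*, a core pluripotency factor, was found in 42.1% and 40.8%. The pluripotency marker *Sox2* was found in 19.0% (12.6 to 27.0) and 12.2% (9.86 to 14.9), and *Zfp42* in 30.2% (22.3 to 39.0) and 37.1% (33.4 to 40.8). *Foxh1* was found in 3.17% (0.872 to 7.93) and 0.872% (0.321 to 1.89), from 10 cells in all. *Nodal* was found in 4.76% (1.77 to 10.1) and 6.10% (4.43 to 8.16). *Bmp4*, a ligand of the related BMP branch, was found in 5.56% (2.26 to 11.1) and 10.8% (8.54 to 13.3). *Bambi*, a decoy receptor, was found in 0 of the 126 cells and in 3.20% (2.01 to 4.80) of the others. Each of these pairs of intervals overlapped, which does not show that the cells were alike.

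Cells that carry endoderm markers held hardly any of the *Lefty* UMIs. In 35 PD100 cells these markers made up at least 1% of all UMIs, and those cells held 1 *Lefty1* UMI and 0 *Lefty2* UMIs. At equal depth *Lefty1* was found in 0 of the 35, with an exact upper limit of 10.003%, and in 9.88% (7.88 to 12.2) of the other PD100 cells. These intervals overlapped. The *Lefty1* level was 12.7 CPM (0.323 to 71.0) in the 35 cells and 187 CPM (167 to 209) in the others, which did not overlap. These CPM intervals take UMIs as independent, while *Lefty1* UMIs were uneven over cells, so they are too narrow. The median depth was 2287 UMIs in the 35 cells against 2150 in the other cells. The same 35 cells held 1 *Nodal*, 4 *Tdgf1*, 1 *Smad7* and 1 *Skil* UMIs. For *Tdgf1* this was 51.0 CPM (13.9 to 131) against 598 CPM (562 to 635) in the remaining PD100 cells. Without the 35 cells the log2 ratio was -5.92 for *Lefty1*, -5.78 for *Lefty2* and -2.42 for *Nodal*. The choice of 1% was made after the data were seen, and 26 cells had between 0.5% and 2%.

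By the similarity of their counts over the 814 PD100 cells, *Lefty2* was the gene most like *Lefty1* and *Lefty1* the one most like *Lefty2*, with a Pearson correlation of 0.18 between log counts among 2909 genes. Among the next for *Lefty1* were *Mta3*, *Rdm1*, *Gng3* and *Man2b1*, at 0.17 to 0.12. For *Lefty2* they were *Cmpk1*, *Mtf2*, *Gm10709*, *Tuba1a* and *Trh*, at 0.14 to 0.12. *Nodal* correlated with *Lefty1* at 0.03 and with *Lefty2* at -0.07, and *Tdgf1* at 0.01 and 0.07. All points share 1 library, and in counts this sparse correlations of this size are weak.

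The intracellular inhibitors differed less. *Smad7* had 55 UMIs in PD100 and 48 in PD800, or 30.1 CPM (22.7 to 39.2) and 18.6 CPM (13.7 to 24.7), intervals that overlapped. The log2 ratio was -0.70 (-1.28 to -0.11), an interval that also holds the median of all genes. At equal depth *Smad7* was found in 2.58% (1.60 to 3.92) of the PD100 cells and in 1.89% (1.10 to 3.01) of those of PD800. *Skil* had 61 UMIs in PD100 and 39 in PD800, or 33.4 CPM (25.6 to 42.9) and 15.1 CPM (10.7 to 20.7), which did not overlap. The log2 ratio was -1.14 (-1.76 to -0.54), 2.21-fold lower, but -0.80 relative to the median gene, which is under the 2-fold rule. *Skil* was found in 3.07% (1.997 to 4.50) and 1.89% (1.10 to 3.01) of cells at equal depth. The PD800 draw was somewhat high for *Skil*, since its mean over all draws was 2.91% in PD100 and 1.36% in PD800. *Smad7* lies on the plus strand of chromosome 18 and *Skil* on the plus strand of chr3:31095058-31122577.

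Lists of 64 genes of the Nodal, activin and BMP pathways, which include the 6 genes, held 24 genes with at least 50 UMIs. Of these 24, 6 were at least 2-fold lower in PD800 (*Nodal*, *Lefty1*, *Lefty2*, *Skil*, *Bmp4* and *Id1*) and 3 higher (*Furin*, *Pmepa1* and *Bmpr2*), against 16.9% and 9.22% of all genes. Of the 6 lower ones, 4 are genes described here and were chosen on this contrast. Relative to the median gene the split was 5 and 4, against 7.79% and 13.9%. Without the 6 genes, 18 remained, of which 2 were lower and 3 higher, at a median log2 ratio of -0.06. With so few genes, the counts among these 18 are near the 16.9% and 9.22% of all genes, and nothing about the pathway is read from them. The counts among the 24 include the genes chosen on this contrast and are not read either.

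Among the ligands and their processing enzymes, *Furin*, a protease that can cleave the Nodal precursor, had 146 UMIs in PD100 and 1789 in PD800. This was 79.9 CPM (67.5 to 94.0) against 693 CPM (661 to 726), and the log2 ratio was 3.12 (2.87 to 3.37). *Gdf3*, a ligand that shares receptors and coreceptor with Nodal, was under the 2-fold rule at 0.40 (0.18 to 0.61), with UMI counts of 272 and 506. *Gdf1* had 0 UMIs in both libraries, with upper limits of 2.02 CPM in PD100 and 1.43 CPM in PD800. The other 6 ligand genes, *Inhba*, *Inhbb*, *Tgfb1*, *Tgfb2*, *Tgfb3* and *Pcsk6*, had too few UMIs to compare.

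Of the 9 receptors and coreceptors, *Tdgf1* was the only one with at least 50 UMIs. Of the 6 SMADs and partners, 3 reached that number and 0 passed 2-fold. *Smad2*, a signal carrier, was at 0.39 (-0.12 to 0.90), with UMI counts of 52 and 96. *Foxh1*, the DNA-binding partner, had 29 and 24 UMIs at -0.77 (-1.62 to 0.06), and *Trim33* had 22 and 48 at 0.63 (-0.13 to 1.43). All 3 intervals included 0.

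Beside *Lefty1* and *Lefty2*, the extracellular inhibitors *Cer1*, *Dand5*, *Fst*, *Fstl3* and *Inha* had too few UMIs to compare, and *Cer1* had 0 in both libraries. Of the 12 intracellular inhibitors, 8 had at least 50 UMIs. *Skil* was lower, and *Pmepa1*, which sequesters SMADs and is a target of the pathway, was higher, at a log2 ratio of 1.45 (0.61 to 2.38) from counts of 15 in PD100 and 58 in PD800. *Ski*, *Tgif1*, *Tgif2* and *Drap1*, corepressors of the SMADs or Foxh1, had log2 ratios of -0.19, -0.35, -0.54 and 0.08. *Ppm1a*, a phosphatase, was at -0.72.

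The 8 mesendoderm target genes had 42 UMIs in all in PD100 and 29 in PD800, and none reached 50.

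In the BMP branch, 7 of 12 genes had at least 50 UMIs, of which 2 were lower and 1 higher, beside 16.9% and 9.22% of all genes. *Bmp4* had 233 UMIs (128 CPM) in PD100 and 113 (43.8 CPM) in PD800, at -1.54 (-1.88 to -1.21). *Id1*, a direct BMP target, had 4510 UMIs (2470 CPM) and 2110 (818 CPM), at -1.59 (-1.67 to -1.52). The related *Id2* went the other way, with 92 and 242 UMIs at 0.90 (0.54 to 1.26), and *Id3* was at -0.50 (-0.76 to -0.25). *Bmpr2*, a receptor, had 16 and 46 UMIs at 1.02 (0.18 to 1.94). *Bambi* was at 0.65 and *Smad5* at -0.56. The BMP targets of the Id family thus did not share a direction.

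**Figure D4:**
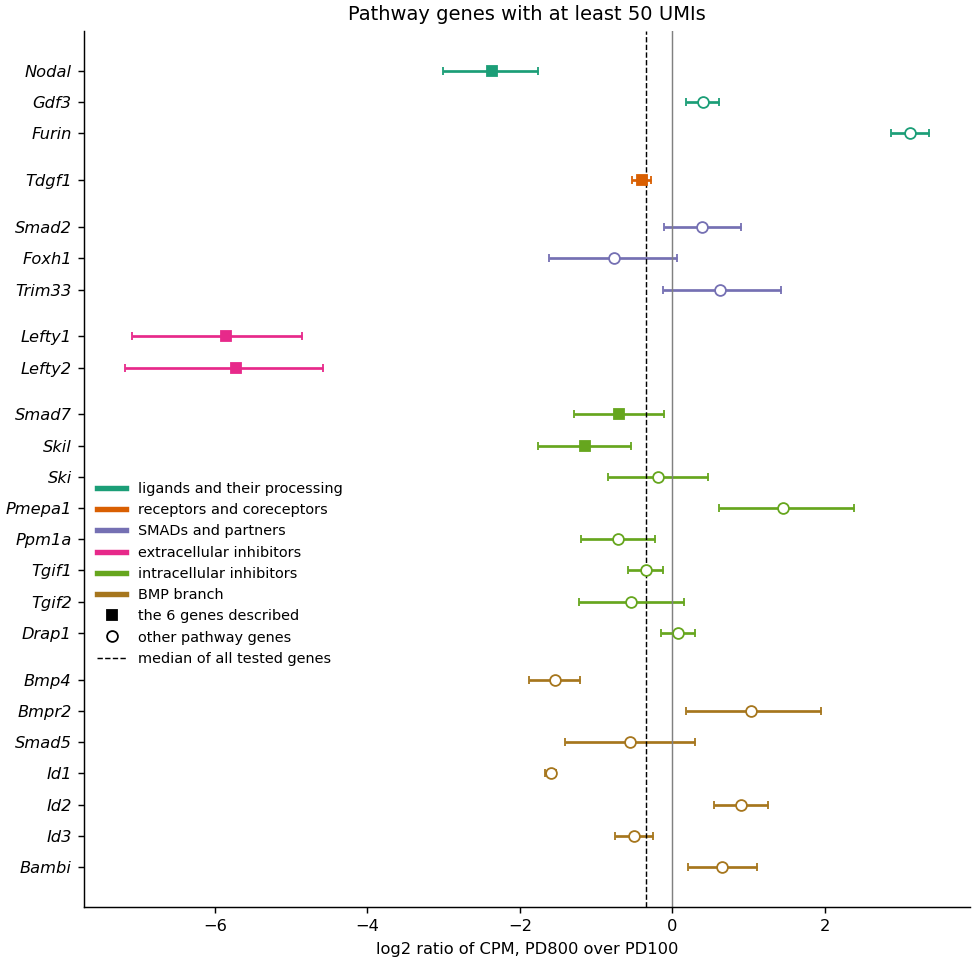
Log2 ratio of CPM, PD800 over PD100, of the 24 pathway genes with at least 50 UMIs, with 95% counting intervals and coloured by list. Filled squares are the 6 genes described, open circles the other pathway genes, the dashed line the median of all 6984 genes. *Lefty1* and *Lefty2* stand alone under -4, *Nodal* follows at -2.37 and *Furin* stands at 3.12 on the other side.

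Of 6 markers of the primed epiblast state, in which Nodal signalling is needed, 2 had at least 50 UMIs. Both were at least 2-fold lower in PD800, beside 16.9% of all genes: *Otx2* at -1.74 (-2.19 to -1.31) and *Dnmt3b* at -2.24 (-2.72 to -1.78). The other 4 were sparse and did not share a direction, with UMI counts of 44 and 5 for *Pou3f1*, 7 and 2 for *Fgf5*, 1 and 9 for *Sox3* and 1 and 4 for *Wnt8a*. Of the 10 embryonic stem cell markers 0 were at least 2-fold lower, beside 16.9% of all genes, and 3 were higher, beside 9.22%. These 3 were *Nanog* at 1.00, *Esrrb* at 1.51 and *Klf4* at 1.69, of which *Nanog* only just reached the limit. Relative to the median gene 0 were lower and 4 higher, beside 7.79% and 13.9%. *Pou5f1* was at -0.35 and *Sox2* at 0.06. The 7 fibroblast markers, for feeder cells, had 24 and 32 UMIs in all. The part of these cell states in the *Nodal* and *Lefty* values was not tested.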

How the data were processed

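The authors deposited raw UMI counts for each barcode and gene, made from inDrops libraries with the inDrops pipeline against a transcriptome of GRCm38/mm10 (annotation release not given in the sources used here). Scanpy is named in the submitters' processing notes. All values were checked to be whole. The study's filter (at least 1000 UMIs, at most 20% mitochondrial) was applied, removing 477 of 1291 PD100 and 766 of 1666 PD800 barcodes. It left more cells than the study states, and the reason was not resolved. Counts were summed per library. Intervals are at 95% and cover counting error alone: exact Poisson for CPM, conditional Clopper-Pearson for ratios of CPM and exact binomial for shares. The CPM and ratio intervals take UMIs as independent of each other. For joint detection the interval is the exact binomial one of the joint count, with the product of the single shares held fixed. A count of 0 was set to 3 per library for bounds. Shares and co-detection used cells thinned to 1000 UMIs (seed 1). Genes with at least 50 UMIs were compared, and 2-fold was the rule of size. Scrublet called 14 PD100 and 8 PD800 cells as doublets, which were kept. There is 1 library per group, so no test was run. Named genes were the 6 genes, the pathway lists, *Terc* and the 6 genes most similar to each *Lefty* gene among genes with a UMI in at least 40 thinned PD100 cells. The genes at 0 and the markers named with values were added after the values were seen. Members and lists were chosen with earlier results of these data known. Scripts used Python 3.11.15, NumPy 2.4.6, SciPy 1.17.1, pandas 2.3.3, Scanpy 1.11.5 and Biopython 1.88, and were tested on simulated data. Alternatives changed the cell filter, doublets, scaling, gene minimum, size rule and thinning. Some genes named by these rules are not reported here.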

Additional observations from a re-analysis of the deposited data

Results flagged for a closer look

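Barcodes that the cell filter left out still carried UMIs of the 6 genes above the 3 counts set for a 0. In PD100 these 477 barcodes held *Lefty1* at 219 CPM (54 UMIs), *Lefty2* at 122 CPM (30 UMIs), *Nodal* at 77.0 CPM (19 UMIs), *Tdgf1* at 458 CPM (113 UMIs), *Skil* at 48.6 CPM (12 UMIs) and *Smad7* at 16.2 CPM (4 UMIs). In the 766 PD800 barcodes left out, *Tdgf1* was at 408 CPM (187 UMIs), *Nodal* and *Smad7* each at 21.8 CPM (10 UMIs) and *Skil* at 15.3 CPM (7 UMIs). *Lefty1* had 2 UMIs and *Lefty2* 1 UMI there, which is under those 3 counts. The log2 ratio of PD800 over PD100 in these barcodes was -5.65 (-8.73 to -3.73) for *Lefty1* and -1.82 (-3.09 to -0.64) for *Nodal*.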

How the results depend on the processing

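The log2 ratios of *Lefty1* (-5.95 to -5.52), *Lefty2* (-5.80 to -5.38), *Nodal* (-2.42 to -2.03), *Smad7* (-0.73 to -0.35) and *Skil* (-1.22 to -0.80) kept their direction under 8 alternatives each, which changed the cells, doublets, barcodes shared by both libraries or scaling. *Skil* was under 2-fold with median-of-ratios scaling. That scaling moved the median of all genes from -0.34 to 0.00 and the ratio of *Tdgf1* to -0.060. It also turned the split of all genes from 1178 lower and 644 higher to 544 and 973, and that of the pathway genes from 6 and 3 to 5 and 4. With at least 20 UMIs per gene, 11 of 38 pathway genes were lower (1916 of 9818 of all genes) and 4 higher (995). With no minimum 14 of 50 were lower (3882 of 16588) and 7 higher (1894). With at least 200 UMIs 4 of 11 were lower (401 of 3214) and 1 higher (334). With a 1.5-fold rule 9 of 24 were lower (2554 of 6984) and 6 higher (1065). The main count was 6 of 24 lower and 3 higher. The ratio of joint detection of *Lefty1* and *Lefty2* lay between 2.37 and 3.28 over 6 alternatives. No paired analysis was possible because each group is 1 library, and no library could be left out. The 8 *Lefty1* and 6 *Lefty2* UMIs of PD800 limit the *Lefty* shares and ratios there.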
